A study of Mus musculus with 6 samples.

Results

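Serine synthesis and the integrated stress response were followed here through 10 genes, all found in the deposited tables of 35275 Ensembl genes by their GENCODE M21 symbols and all among the 16938 genes with enough reads to be tested. They were chosen by name as pathway members, with earlier results of these data known. Phgdh, Psat1, Psph and Shmt2 stand for serine synthesis and Asns, Chac1, Ddit3, Atf4, Atf5 and Trib3 for the ATF4 pathway. Poly-A RNA had been sequenced from the forebrains of 6 C57BL/6 mice on postnatal day 9. In the cKO (conditional knockout) group were 3 mice with the genotype Pdgfra-CreER:Parp1fl/fl, in which a tamoxifen-activated recombinase is driven by Pdgfra and so acts in oligodendrocyte precursor cells and other cells that express Pdgfra. The control group was 3 littermates that carried the same floxed Parp1 alleles without the recombinase. Mice of both groups received intraperitoneal tamoxifen on postnatal days 1, 2 and 3, so the presence of the recombinase and the loss of Parp1 cannot be told apart in this comparison. The RNA came from all cells of the forebrain. Fewer cells of a type and less RNA per cell cannot be told apart in it.

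The serine synthesis pathway makes the amino acid serine from a glycolytic intermediate and feeds glycine, the folate cycle and membrane lipids. In the brain it is carried mainly by astrocytes and radial glia, and serine is a precursor of sphingolipids, including those of myelin. The integrated stress response is a shared answer to amino acid shortage, unfolded proteins, haem shortage and viral RNA. Its kinases phosphorylate the initiation factor eIF2, which lowers protein synthesis in general while raising translation of the transcription factor ATF4, and ATF4 then induces genes of amino acid supply, among them the serine synthesis enzymes. Much of this control acts on translation, so the Atf4 messenger level does not measure ATF4 activity.

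Total counts ran from 19934003 to 29310193 in the cKO libraries and from 17262042 to 22118915 in the control libraries. Parp1 itself was at 80.8, 79.7 and 79.1 CPM in cKO replicates 1, 2 and 3, against 90.8, 97.3 and 85.6 CPM in control replicates 1, 2 and 3 (log2 fold change -0.19, edgeR adjusted p = 0.572). Its counts cover all exons and all forebrain cells, so they do not measure the deletion within the lineage. Control replicate 3 stood apart on the first principal component, at 43.5 against -16.2 to -3.62 in the other 5 libraries, and 7 striatal marker genes summed to 185 CPM there, against 643 to 745 CPM in the cKO libraries and 643 and 828 CPM in the other control libraries. Its summed thalamic markers were at 625 CPM, against 200 to 245 CPM in the cKO libraries and 213 and 230 CPM in the other control libraries. Control replicate 1 was the only library with more than 1 count of the Y-linked gene Ddx3y (1123 counts), so by these counts the sexes were not balanced between the groups.

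Per gene length, Atf4 stood highest of the 10 genes and Trib3 lowest. In deposited FPKM (the read count divided by gene length and library total), the mean over the 6 libraries was 59.2 for Atf4, with libraries from 53.8 to 64.3. Psat1, Asns and Phgdh followed, with means from 28.04 to 30.6 FPKM. The library ranges of these neighbours overlapped, so their order is not resolved. Shmt2 was at 12.2 FPKM and lay apart from its neighbours. Ddit3 and Atf5, at 9.16 and 8.95 FPKM, overlapped each other. Psph was at 7.05 FPKM, and its library range overlapped that of Ddit3 but not that of Atf5. Chac1 was at 3.26 and Trib3 at 0.543 FPKM, and neither range overlapped that of any other member. Among all tested genes these FPKM levels stood at percentile 93.8 for Atf4, 86.1 for Psat1 and 10.2 for Trib3. The level of Phgdh carries an uncertainty from similar copies. Outside its locus, 19 other annotated genes, 17 of them processed pseudogenes, matched its transcript at 90.4% to 98.7% identity over at least 200 bases. The 8 of these copies in the table held 44 counts over all 6 libraries, against 7056 for Phgdh, and how reads shared with them were counted is not stated.

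**Figure D1:**
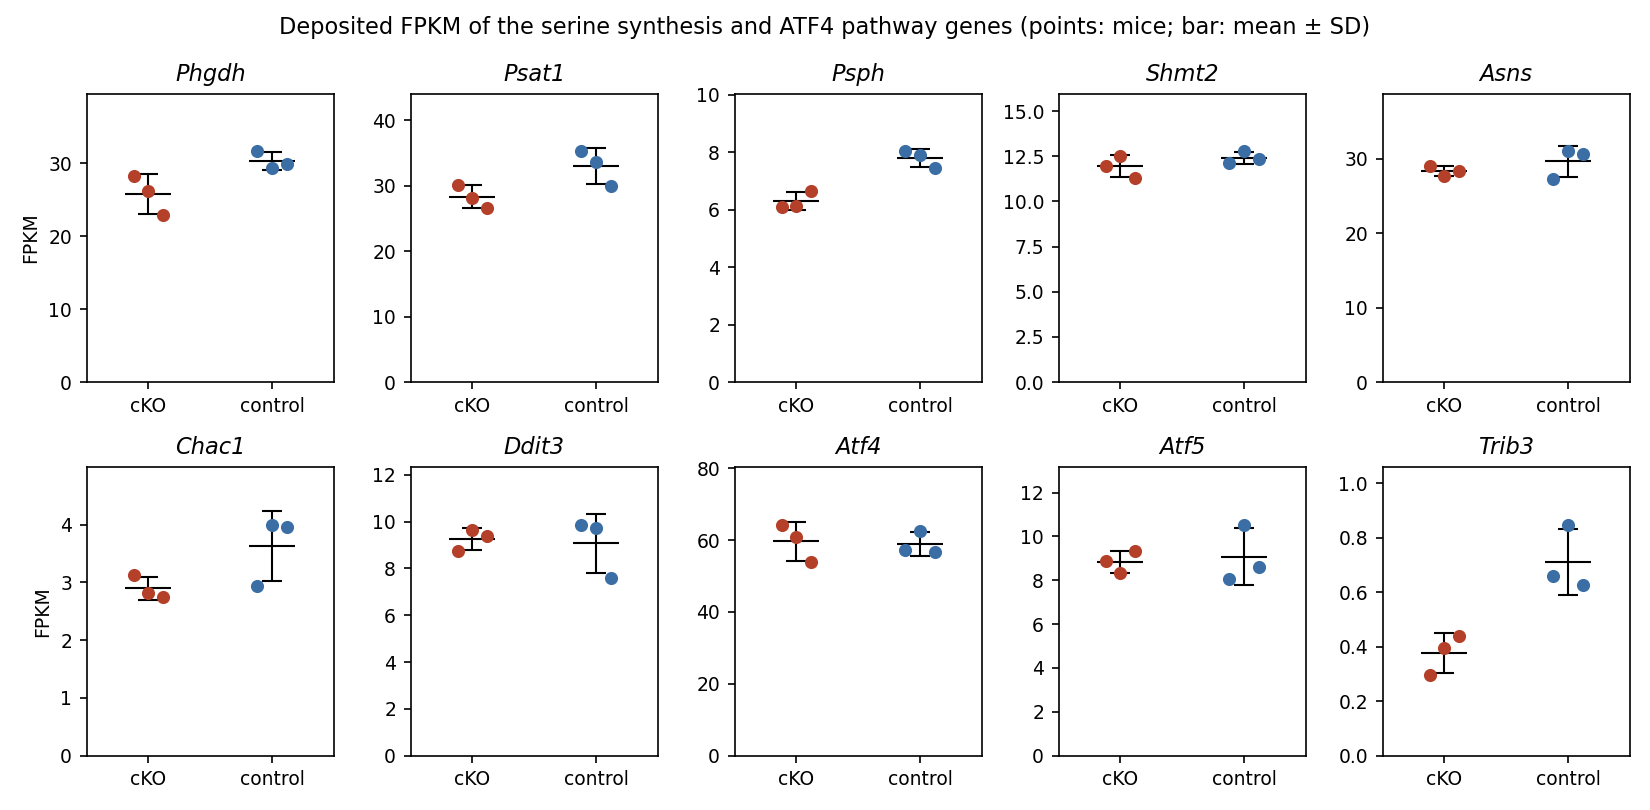
Deposited FPKM of each of the 10 genes in cKO (left, red) and control (right, blue) forebrains, with 1 point per mouse, the mean and the SD (n = 3 each); each vertical axis starts at 0 and has its own scale. The cKO points of Phgdh, Psph and Trib3 lay below all control points. Those of Psat1, Shmt2, Asns, Chac1, Ddit3, Atf4 and Atf5 overlapped the control points.

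No member passed the test between cKO and control forebrains (0 of 10 by edgeR's quasi-likelihood test, 0 of 10 by DESeq2 and 0 of 10 by limma-voom), where 0.266% of all tested genes were called by edgeR. The smallest adjusted p of a member was 0.462, for Psph. At an unadjusted p under 0.05, 4 of the 10 members were lower in cKO, namely Phgdh, Psat1, Psph and Trib3, and 0 were higher. Over all tested genes, 2.75% were lower and 3.52% higher at that unadjusted threshold. The same 4 members had CPM values that did not overlap between the groups, as did 5.86% of all tested genes in that direction. In deposited FPKM, which are not scaled by TMM, this held for 3 of them, since Psat1 overlapped. The median log2 fold change of the 10 members was -0.14, beside -0.00 over all tested genes. Because the members were chosen with earlier results of these data known, these shares and medians describe the list and do not test it.

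The 3 enzymes that make serine were lower in every cKO mouse than in every control by CPM, as were 5.86% of all tested genes. In deposited FPKM the groups of Psat1 overlapped. The differences were -13.8% to -18.8%, and none passed the adjusted threshold. Phgdh, phosphoglycerate dehydrogenase, commits the intermediate to serine (ENSMUSG00000053398, chromosome 3, 98313170 to 98339990 on mm10). Its level was 52.5, 49.95 and 44.2 CPM in cKO replicates 1, 2 and 3, against 59.7, 55.1 and 57.1 CPM in control replicates 1, 2 and 3. All cKO mice lay below all controls, and cKO replicate 3 was lowest. The log2 fold change was -0.23, a difference of -14.7% with a 95% confidence interval from -24.1% to -4.23% (edgeR adjusted p = 0.572). Without cKO replicate 3 it was -0.17, and the unadjusted p by edgeR was then 0.0563.

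Psat1, phosphoserine aminotransferase, carries out the step after Phgdh (ENSMUSG00000024640, chromosome 19, 15904678 to 15947337). It was at 77.4, 74.2 and 71.0 CPM in cKO replicates 1, 2 and 3, against 92.0, 87.3 and 79.0 CPM in control replicates 1, 2 and 3. By CPM the groups came close to each other, with cKO replicate 1 just below control replicate 3, and in deposited FPKM they overlapped. The log2 fold change was -0.21, or -13.8% with an interval from -22.5% to -4.09% (edgeR adjusted p = 0.563). Leaving out control replicate 3, the library with the displaced regional markers, gave -0.28 and an adjusted p of 0.0927 by edgeR, and leaving out control replicate 1, the library with Y-linked counts, gave -0.16 and 0.669.

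Psph, phosphoserine phosphatase, releases free serine in the last step (ENSMUSG00000029446, chromosome 5, 129765558 to 129787449). It was at 17.3, 17.7 and 19.5 CPM in cKO replicates 1, 2 and 3, against 23.0, 22.6 and 21.6 CPM in control replicates 1, 2 and 3. All cKO mice lay below all controls, and the gap between the groups was smaller than the range within the cKO group. The log2 fold change was -0.30, or -18.8% with an interval from -29.3% to -6.63% (edgeR adjusted p = 0.462). Exons of Psph overlap those of Cct6a, a chaperonin subunit on the opposite strand, by 452 bp, and the strand setting of the counting is not given. Cct6a had a mean level of 160 CPM in the cKO mice and 172 CPM in the control mice (log2 fold change -0.10, edgeR adjusted p = 0.869). For Phgdh, Psat1 and Psph alike an exact two-sided permutation test of CPM returned 0.1, which is the lower limit of p in a design of 3 against 3 mice.

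Shmt2, the mitochondrial enzyme that splits serine into glycine and a folate-bound carbon unit, differed by less than the spread between mice (ENSMUSG00000025403, chromosome 10, 127517123 to 127522444). It was at 27.2, 29.1 and 26.6 CPM in cKO replicates 1, 2 and 3, against 27.9, 29.2 and 28.7 CPM in control replicates 1, 2 and 3. The groups overlapped, and the difference of -3.51% had an interval from -14.4% to 8.80% (edgeR adjusted p = 0.941). Summed over the 4 enzymes, the level was 174, 171 and 161 CPM in cKO replicates 1, 2 and 3, against 203, 194 and 186 CPM in control replicates 1, 2 and 3.

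**Figure D2:**
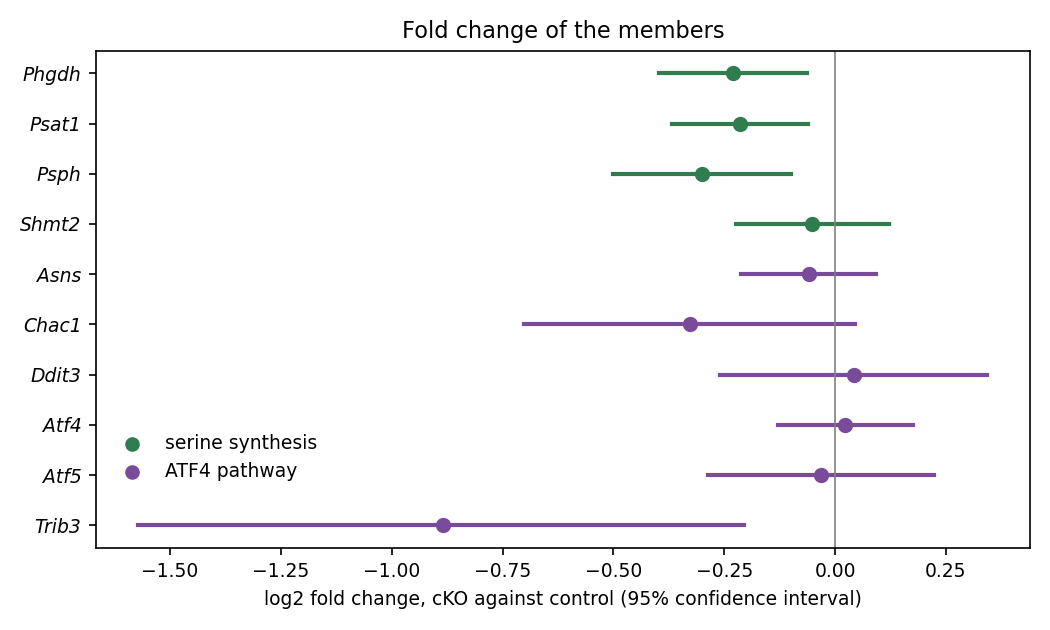
Log2 fold change of each member, cKO against control, with its 95% confidence interval from edgeR; green marks serine synthesis and purple the ATF4 pathway. The intervals of Phgdh, Psat1, Psph and Trib3 lie below 0 before adjustment over all genes, and the interval of Trib3 is the widest.

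The transcription factors of the response showed no difference beyond the spread between mice. Atf4, the central factor (ENSMUSG00000042406, chromosome 15, 80255184 to 80257541), was at 109, 106 and 94.5 CPM in cKO replicates 1, 2 and 3, against 98.5, 107 and 98.4 CPM in control replicates 1, 2 and 3. The range of the cKO mice enclosed that of the controls. Its difference of 1.60% had an interval from -8.53% to 12.9% (edgeR adjusted p = 0.971). Atf5, a related factor tied to mitochondrial protein stress (chromosome 7, 44812256 to 44816658), averaged 16.1 ± 1.06 CPM in cKO mice and 16.4 ± 2.27 CPM in control mice (SD, n = 3 each). Ddit3, which encodes CHOP, a factor that promotes cell death under prolonged stress (chromosome 10, 127290774 to 127296288), averaged 9.00 ± 0.579 CPM in cKO and 8.77 ± 1.16 CPM in controls. Their intervals ran from -18.0% to 16.8% for Atf5 and from -16.4% to 26.9% for Ddit3 (edgeR adjusted p = 0.975 and 0.973). The log2 fold change of Ddit3 was 0.04 over all libraries and -0.07 without control replicate 3, which had the lowest Ddit3 level at 7.44 CPM. Exons of Ddit3 and Atf5 overlap genes on the opposite strand by 81 and 164 bp, and those of Shmt2 by 32 bp. Another annotated gene that is also named Ddit3 overlaps the Ddit3 exons on the same strand by 105 bp. How reads in that stretch were counted is not stated.

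Of the 3 members Asns, Chac1 and Trib3, Trib3 alone had groups that did not overlap. The proximal promoters of these 3 genes are shown because they are the member windows that hold the letters TGATGNAA on either strand. These letters are the core of the composite C/EBP-ATF element at which ATF4 is known to act. The windows run from 250 bases before to 50 bases after the transcription start, in the RefSeq annotation of GRCm38.p6 (the same assembly as mm10), are written 5′ to 3′ on the gene's strand, and have the match in capitals. The match begins at position -23 in Asns (minus strand, chr6:7693160-7693459), at -193 in Chac1 (plus strand, chr2:119350992-119351291) and at 15 in Trib3 (minus strand, chr2:152344011-152344310), counted from the start as 1.
Asns: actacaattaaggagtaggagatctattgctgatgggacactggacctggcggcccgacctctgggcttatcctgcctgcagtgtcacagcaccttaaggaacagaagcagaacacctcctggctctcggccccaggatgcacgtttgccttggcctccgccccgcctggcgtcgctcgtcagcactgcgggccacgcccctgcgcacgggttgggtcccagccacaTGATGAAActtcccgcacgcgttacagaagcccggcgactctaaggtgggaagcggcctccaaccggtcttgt
Chac1: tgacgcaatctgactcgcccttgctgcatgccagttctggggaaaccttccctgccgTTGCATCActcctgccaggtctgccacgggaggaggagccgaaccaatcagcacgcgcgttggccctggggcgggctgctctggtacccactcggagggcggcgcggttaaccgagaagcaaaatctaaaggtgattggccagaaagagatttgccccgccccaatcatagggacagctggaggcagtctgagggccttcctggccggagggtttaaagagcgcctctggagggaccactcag
Trib3: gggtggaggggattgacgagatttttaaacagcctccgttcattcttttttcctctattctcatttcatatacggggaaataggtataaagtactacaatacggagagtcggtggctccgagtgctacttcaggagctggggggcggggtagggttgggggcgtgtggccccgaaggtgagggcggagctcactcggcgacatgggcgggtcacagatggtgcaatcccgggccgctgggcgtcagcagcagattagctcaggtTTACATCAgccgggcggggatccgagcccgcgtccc
Asns reads TGATGAAA along the gene's strand, while Chac1 and Trib3 hold the letters on the other strand, as TTGCATCA and TTACATCA. The motif was in a window of 3 of the 10 members and in 4.51% of the 27025 genes with a window (3.97% of 32851 windows). The members were chosen by name as pathway genes, so these shares describe the list and do not test it. No other motif was searched. The letters are not in the windows of the other 7 members, which says nothing about elements elsewhere.

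Asns, asparagine synthetase, is a classical target induced by amino acid shortage (ENSMUSG00000029752, chromosome 6, 7675169 to 7693254). It was at 57.6, 56.1 and 58.4 CPM in cKO replicates 1, 2 and 3, against 54.9, 62.0 and 62.3 CPM in control replicates 1, 2 and 3. The cKO mice lay inside the range of the controls. The difference was -4.05%, with an interval from -13.6% to 6.59% (edgeR adjusted p = 0.918).

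Chac1, a glutathione-degrading enzyme induced downstream of ATF4 and CHOP (ENSMUSG00000027313, chromosome 2, 119351229 to 119354381), was at 5.03, 4.64 and 4.59 CPM in cKO replicates 1, 2 and 3. In control replicates 1, 2 and 3 it was at 4.79, 6.49 and 6.52 CPM. Control replicate 1 lay among the cKO mice and the other controls above them. The log2 fold change was -0.33 with an interval from -0.70 to 0.05 (edgeR adjusted p = 0.835).

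Trib3, a pseudokinase that dampens the response (ENSMUSG00000032715, chromosome 2, 152337422 to 152344032), was counted only 12, 20 and 26 times in cKO replicates 1, 2 and 3, against 23, 37 and 28 times in control replicates 1, 2 and 3. In CPM these were 0.592, 0.808 and 0.904 in cKO and 1.33, 1.70 and 1.28 in controls. All cKO values lay below all control values. The log2 fold change was -0.88, a difference of -45.8% with an interval from -66.4% to -13.3% (edgeR adjusted p = 0.628; exact two-sided permutation p = 0.1). The same difference was -0.31 on log2(FPKM + 1), a scale that understates the change of a gene this low.

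**Figure D3:**
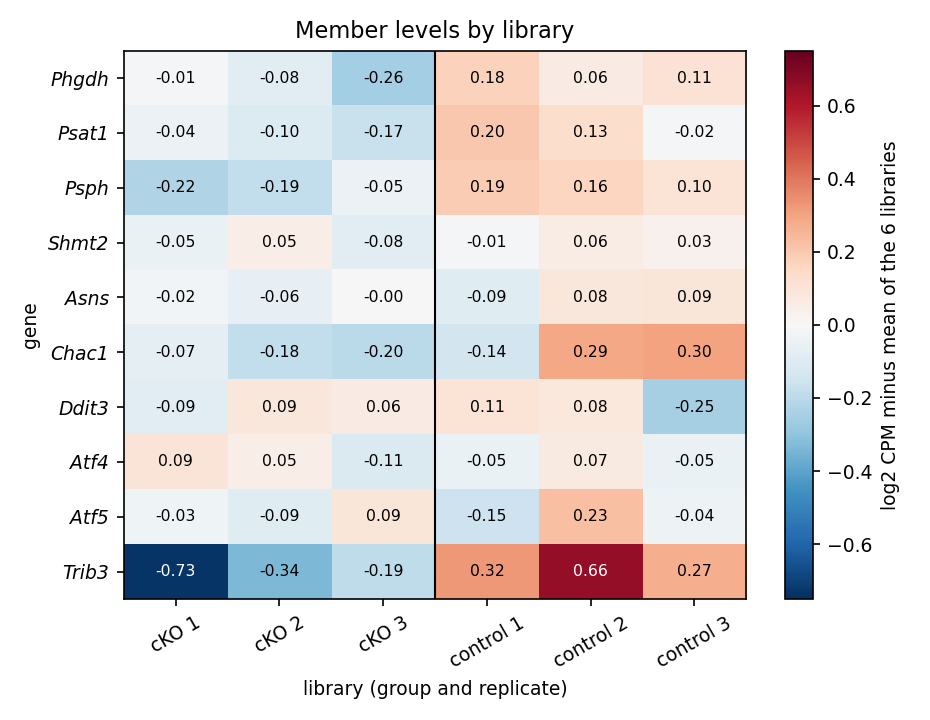
Log2 CPM of each member in each library minus its mean over the 6 libraries, with cKO libraries left of the black line and control libraries right of it. Phgdh, Psat1, Psph, Asns, Chac1 and Trib3 are below their means in all cKO libraries, Asns by at most 0.06, while Shmt2, Atf4, Atf5 and Ddit3 show both signs within each group.

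The members differed in which mice were lowest and in their range over all 6 libraries. Log2 CPM less the mean of the 6 libraries was averaged over Phgdh, Psat1 and Psph. This average came to -0.09, -0.12 and -0.16 in cKO replicates 1, 2 and 3. In control replicates 1, 2 and 3 it came to 0.19, 0.12 and 0.07. These are the serine synthesis members whose CPM did not overlap between the groups, so their average restates that separation. With Shmt2 included, the average over the 4 enzymes was -0.08, -0.08 and -0.14 in the cKO replicates and 0.14, 0.10 and 0.06 in the control replicates. Within the cKO group Phgdh was lowest in replicate 3, while Psph and Trib3 were lowest in replicate 1. Over both groups together, and so with any group difference included, the highest library exceeded the lowest by 1.10-fold for Shmt2, 1.14-fold for Asns and 1.15-fold for Atf4. The corresponding CPM ratio was 1.35-fold for Phgdh, 1.42-fold for Chac1 and 2.88-fold for Trib3.

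No gene of the wider pathway was called either (0 of 109 tested genes in 7 lists by edgeR). At an unadjusted p under 0.05, 4 were higher and 1 was lower in cKO, where 3.52% and 2.75% of all tested genes were. The median log2 fold change over the 109 genes was -0.03. Named by level, the 3 genes with the highest mean FPKM of each list were taken without regard to the comparison.

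Enzymes and carriers that use serine or glycine had 0 of 19 called and a median log2 fold change of -0.05. Sfxn1, the mitochondrial serine carrier, averaged 27.3 ± 0.187 FPKM in cKO and 28.5 ± 0.931 FPKM in controls (SD, n = 3 each; log2 fold change -0.05). Gcsh and Amt, subunits of the glycine cleavage system, had log2 fold changes of -0.07 and 0.06. Of 13 amino acid transporters 0 were called, with a median of -0.03. Slc38a2, a neutral amino acid carrier induced by ATF4, averaged 50.5 ± 5.69 FPKM in cKO and 47.3 ± 1.66 FPKM in controls. Slc3a2 and Slc7a5, which pair as a large neutral amino acid exchanger, had log2 fold changes of -0.01 and -0.05.

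The 17 genes of eIF2, its kinases, phosphatases and exchange factor had 0 called and a median of 0.00. Impact, an inhibitor of the amino acid-sensing kinase GCN2, had a log2 fold change of -0.05, and the eIF2 subunit genes Eif2s2 and Eif2s3x had -0.10 and 0.07. Eif2s3x was at 63.0 CPM in control replicate 1, the library with Y-linked counts, against 81.8 to 101 CPM in all other libraries. With each library left out in turn, its log2 fold change ran from -0.10 to 0.21. Of the other ATF4 targets 20 of 22 passed the filter on low counts and 0 were called, with a median of -0.01. The 2 that did not pass the filter were Gdf15 and Fgf21, at 0.141 and 0.0985 FPKM in cKO and 0.175 and 0.0162 FPKM in controls. Sqstm1, an autophagy receptor, averaged 116 ± 5.52 FPKM in cKO and 121 ± 4.76 FPKM in controls, and Map1lc3b, of the autophagosome membrane, had a log2 fold change of 0.01. Ddit4, an inhibitor of mTORC1, had -0.14 (edgeR adjusted p = 0.831).

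Of 12 aminoacyl-tRNA synthetases 0 were called, with a median of -0.03 and values from -0.10 to 0.05. Nars, which charges asparagine, averaged 66.0 ± 0.687 FPKM in cKO and 66.1 ± 1.20 FPKM in controls. Gars and Sars, which charge glycine and serine, had log2 fold changes of -0.04 and -0.02. Of 18 endoplasmic reticulum chaperones and sensors 0 were called, with a median of -0.03. Among them Calr and Canx, which fold glycoproteins, had -0.12 and -0.13, and Hspa5, the chaperone BiP, had -0.11. Of 10 mitochondrial chaperones and proteases 0 were called, with a median of -0.04. Hspd1, Hspe1 and Hspa9 had log2 fold changes of -0.03, -0.08 and -0.09.

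Genes outside that naming by level, chosen after their values were seen, were the 5 with an unadjusted p under 0.05 by edgeR. Tnfrsf10b, a death receptor induced by CHOP, averaged 0.783 ± 0.217 FPKM in cKO and 0.477 ± 0.0704 FPKM in controls (log2 fold change 0.70, edgeR adjusted p = 0.712). Slc1a5, a glutamine and serine exchanger, had a log2 fold change of 0.47, and Cth, which makes cysteine from cystathionine, had 0.44 (edgeR adjusted p = 0.719 for each). Eif2ak2, which encodes the interferon-inducible eIF2 kinase PKR, averaged 2.98 ± 0.582 FPKM in cKO and 2.20 ± 0.276 FPKM in controls (log2 fold change 0.43, edgeR adjusted p = 0.619). Clpp, a mitochondrial protease, was the 1 with a lower level, at -0.27 (edgeR adjusted p = 0.631).

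**Figure D4:**
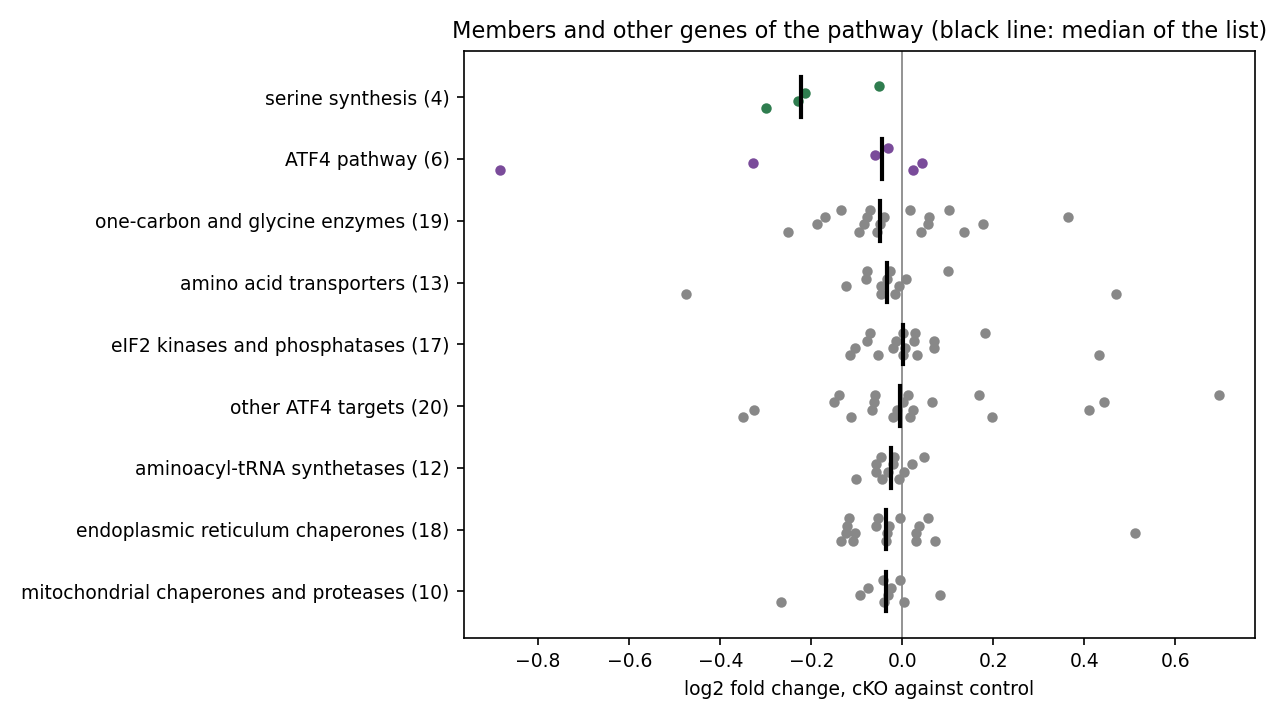
Log2 fold change, cKO against control, of every tested gene of the member groups (top, green and purple) and of 7 further pathway lists (grey), with the number of tested genes in brackets and the median of each list as a black line. The medians of the grey lists lie between -0.05 and 0.00, and that of the 4 serine synthesis enzymes at -0.22.

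Markers of the cell types that could carry these transcripts were read beside them. Of 13 astrocyte markers 0 were called, and their median log2 fold change was 0.03, with values from -0.46 for S100b to 0.27 for Gjb6. Their summed level ran from 4203 to 4561 CPM in cKO and from 4103 to 4419 CPM in controls. The 6 tested oligodendrocyte precursor markers summed to 264 to 305 CPM in cKO and 385 to 406 CPM in controls, with 3 called lower and a median of -0.69. For 5 markers of newly formed oligodendrocytes, of which 4 were called lower, the sums were 274 to 298 CPM in cKO and 506 to 512 CPM in controls. For 8 myelin markers, 6 of them called lower, they were 261 to 302 CPM in cKO and 528 to 679 CPM in controls. Microglial markers, with 0 of 7 called, summed to 349 to 427 CPM in cKO and 233 to 345 CPM in controls. Of 7 markers of neural progenitors and cycling cells 0 were called. Their median log2 fold change was -0.01, with values from -0.61 for Eomes to 0.55 for Nes. The 7 neuronal and 6 endothelial markers had 0 called and medians of 0.05 and 0.08. Of 4 fibroblast markers 0 were called, with a median of 0.47. No marker of these lists was at 0 in any library. The part of these cell types in the lower values of Phgdh, Psat1, Psph and Trib3 was not tested.

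By pattern over the 6 libraries, the genes most like Phgdh among 10465 other genes with a mean of at least 10 CPM were Ostc, a subunit of the oligosaccharyltransferase, Olig1 and the mitochondrial deacetylase gene Sirt3, with Pearson correlations of log2 CPM of 0.991, 0.989 and 0.987. Olig1, a transcription factor of the oligodendrocyte lineage, was at 121, 105 and 83.3 CPM in cKO replicates 1, 2 and 3, against 166, 147 and 146 CPM in control replicates 1, 2 and 3. Like Phgdh it was lowest in cKO replicate 3 (log2 fold change -0.58, edgeR adjusted p = 0.268), which its choice by likeness to Phgdh largely fixes. Ostc and Sirt3 were lowest there too, with log2 fold changes of -0.17 and -0.11. Without control replicate 3, Ostc, Olig1 and Sirt3 ranked 7, 9 and 12 in likeness to Phgdh. Those most like Atf4 were Zc3h12c, the lactate transporter gene Slc16a1 and Wdr83, at 0.988, 0.983 and 0.979. Each of these had a log2 fold change between -0.01 and 0.05, and without control replicate 3 they ranked 4, 18 and 19 in likeness to Atf4. With 6 libraries and this many genes, these names describe the libraries alone.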

How the data were processed

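Poly-A RNA of 6 forebrains (3 cKO, 3 control) had been made into directional libraries, per the labels' protocols. The authors deposited whole-number read counts per Ensembl gene and FPKM. Per the submitters' processing notes, CASAVA, STAR 2.5, HTSeq 0.6.1, DESeq and mm10 were used. Their roles, the strand setting and the annotation release of the counts are not stated in the sources used here. In 100% of the values the deposited FPKM equalled the deposited count divided by the table total and by 1 length per gene, whole within 0.01 bp, so both tables hold 1 measurement.

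Counts were filtered by filterByExpr (minimum count 10, minimum total 15), scaled by TMM and tested with edgeR 4.0.16 in R 4.3.3 (quasi-likelihood, robust, two-sided), with Benjamini-Hochberg adjustment over 16938 genes and calls at an adjusted p under 0.05. CPM are TMM-normalised. The fit was tested on simulated data with changes larger than that of any member, so this does not show whether changes of the members' size would be found. Replicates are separate mice, and every pair of libraries differed beyond sampling noise (chi-square per degree of freedom of 4.09 or more). Alternatives were other scalings and filters, DESeq2 1.42.0, limma 3.58.1 on counts and on log2(FPKM + 1) or log2(FPKM + 0.1), a replicate block, and each library left out. Named genes were the members, any called gene and the 3 highest by FPKM of each pathway list, and the 3 genes most like Phgdh and Atf4 by correlation. Outside this rule, the 5 pathway genes with an unadjusted p under 0.05 were named after their values were seen. So were the lowest and highest markers by fold change of the astrocyte and neural progenitor lists. The members and lists were chosen with earlier results of these data known. Of the marker lists, Lhfpl3 could not be matched to the table. Copies of members were sought with blastn 2.17.0 in GENCODE M21 transcripts.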

Additional observations from a re-analysis of the deposited data

How the results depend on the processing

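No member was called under any of the 18 alternatives run, and the median log2 fold change of the members ran from -0.16 to -0.12 across them, within 0.0529 (the SD between replicates of their mean level) of the reported value. Of 180 member values under these alternatives, 174 kept their direction. The 6 that reversed were of Atf4, Atf5 and Ddit3, all close to 0 and all on leaving out 1 library. Atf4 was then between -0.019 and 0.078 (-0.019, -0.00013 and -0.0049 without cKO replicate 1, cKO replicate 2 and control replicate 3). Atf5 was between -0.11 and 0.085 (0.0039 without cKO replicate 2 and 0.085 without control replicate 2). Ddit3 was between -0.071 and 0.10 (-0.071 without control replicate 3). The causes were not tested. The number of members lower at an unadjusted p under 0.05 was 4 in every setting with all libraries. It was 3 without cKO replicate 1, cKO replicate 3 or control replicate 2. Without control replicate 1 it was 4, with Chac1 in place of Psat1. Of all tested genes, 466 of 16938 were lower at that threshold in the main fit. Across the alternatives this ran from 362 of 17152 without cKO replicate 2 to 691 of 17276 without control replicate 2. Calls over all genes numbered 45, against 111 with no filter, 113 by DESeq2, 24, 24 and 21 on the FPKM scales and 28 without control replicate 1.

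Same-numbered replicates did not deviate together (correlations of 0.0043, -0.0461 and 0.0069), and no library correlated best with its own number in the other group. With the replicate block 0 members and 0 other pathway genes were called, and 32 genes in all. Depth limits Trib3 most, with 146 counts over all libraries.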
